A study of Rattus norvegicus with 18 samples.

Results

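The urea cycle genes examined here were Nags, Cps1, Otc, Slc25a15, Ass1, Asl and Arg1. They were taken by gene symbol, with no threshold on their values, as the enzymes, the activator and the ornithine carrier of the cycle. All 7 were measured, by 14 of the 31042 probe sets that were not array controls, and among the 14217 genes tested each stood as the probe set with the highest mean over the 18 arrays. Liver RNA came from adult male Sprague Dawley rats and was hybridised to Affymetrix expression arrays, with 6 arrays in each of 3 groups. The HFD+PE rats had a high fat diet and a pomegranate skin extract, dosed at 150 mg per kg per day, the HFD rats had the high fat diet without the extract, and the chow rats had chow. All rats were fed for 8 weeks and fasted overnight before the liver was taken, so that every group, chow included, was in the fasted state. The labels call the HFD livers fatty and the HFD+PE and chow livers normal. The composition of the diet and the way the extract was given were not stated in the sources used here.

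The urea cycle removes ammonia, released when amino acids are broken down, by joining it to bicarbonate and aspartate and excreting it as urea. It runs in hepatocytes, mainly those near the portal vein, and its steps are divided between the mitochondrion and the cytosol. Fasting, glucagon and glucocorticoids, as well as dietary protein, are known to raise the transcripts of its enzymes in rat liver.

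Values are RMA log2 signals as deposited, rounded to 1 decimal, so a difference of 1 is a doubling and steps under 0.1 are not resolved on a single array. Within 3 pairs of arrays there were 0 probe sets more than 2 log2 units apart, while each of the remaining 150 pairs had 18 to 109. The arrays of each pair were averaged and counted as 1 animal, named chow 3-4, HFD 1-2 and HFD+PE 3-4, so that each group had 5 animals. Since every array is labelled as a biological replicate, this count is inferred from the values, and p-values measure only the spread between these samples. The 3 pairs were not equally alike. Values were equal for 42.9% of probe sets in HFD 1-2, 20.2% in chow 3-4 and 18.1% in HFD+PE 3-4. The SDs of their differences were 0.12, 0.22 and 0.26. Chow 6 and HFD 2, of different groups, had 20.4% equal values and an SD of 0.26. Counts over all genes depended on this averaging, as the closing section gives. Hybridisation spike-in controls lay at 12.35 to 12.92 on 5 arrays (2 HFD+PE, 0 HFD and 3 chow) and at 11.4 to 11.84 on the other 13. Arrays chow 3 and HFD+PE 3 were in the high set, and chow 4 and HFD+PE 4 in the low set. The 9 hepatocyte markers measured had mean levels of 13.86 to 14.06 in HFD+PE livers, 13.81 to 14.04 in HFD livers and 13.9 to 14.06 in chow livers, as the tissue label says. The 9 macrophage and Kupffer cell markers lay at 7.26 to 8.24 in HFD+PE livers, 7.71 to 8.57 in HFD livers and 8.30 to 9.36 in chow livers, and 0 of them passed the test. All 9 were nevertheless lower in HFD+PE than in chow livers, with a median difference of -0.82, where 45.6% of all genes were lower. All 9 had an unadjusted p under 0.05, against 11.1% of all genes. All 9 were also lower in HFD than in chow livers (median -0.55), where 46.6% of all genes were lower. Of the 9, 6 had an unadjusted p under 0.05 there, against 7.65% of all genes. In HFD+PE against HFD all 9 were lower as well (median -0.34), against 46.6% of all genes. There 0 had an unadjusted p under 0.05, against 2.7% of all genes. Of the 9 markers, 2 are named after their values were seen. C1qa, a complement component made by macrophages, averaged 8.72 ± 0.40 in HFD+PE, 8.96 ± 0.30 in HFD and 9.54 ± 0.38 in chow livers, and Clec4f, a Kupffer cell receptor, averaged 10.08 ± 0.41 in HFD+PE, 10.53 ± 0.48 in HFD and 11.05 ± 0.42 in chow livers (SD, n = 5 each). Of 9 markers of stellate cells and fibroblasts, 8 were lower in HFD+PE than in chow livers (median -0.35), against 45.6% of all genes. An unadjusted p under 0.05 was found for 3 of them (33.3%, against 11.1% of all genes). In HFD against chow 7 were lower (median -0.22), against 46.6% of all genes, and 1 was under it (11.1%, against 7.65%). In HFD+PE against HFD 6 were lower (median -0.13), against 46.6%, and 0 were under it, against 2.7%. The part of cell makeup in the results below was not tested. In whole liver, fewer cells of a type and less RNA per cell cannot be told apart.

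Promoter sequences of the cycle genes were taken from RefSeq (build GRCr8), as 250 bases before to 50 bases after the start that RefSeq's table gives, and 6 of the 7 genes were found there. Printed 5′ to 3′ on the gene's strand are the 3 genes on which the results turn and for which a promoter was found. Ass1 is the gene that differed most between groups by the brightest probe sets. Cps1 and Otc are the mitochondrial enzymes whose levels, by the brightest probe sets, were least alike across animals. Capitals mark any match, on either strand, to 7 short motifs.
Ass1, chr3:35149480-35149779, plus strand: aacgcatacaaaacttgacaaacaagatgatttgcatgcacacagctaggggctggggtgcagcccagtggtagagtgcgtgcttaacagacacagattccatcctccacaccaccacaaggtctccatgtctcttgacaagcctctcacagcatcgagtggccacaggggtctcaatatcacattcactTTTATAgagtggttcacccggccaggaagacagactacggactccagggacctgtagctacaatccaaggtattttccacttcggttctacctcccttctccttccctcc
Cps1, chr9:76063613-76063912, plus strand: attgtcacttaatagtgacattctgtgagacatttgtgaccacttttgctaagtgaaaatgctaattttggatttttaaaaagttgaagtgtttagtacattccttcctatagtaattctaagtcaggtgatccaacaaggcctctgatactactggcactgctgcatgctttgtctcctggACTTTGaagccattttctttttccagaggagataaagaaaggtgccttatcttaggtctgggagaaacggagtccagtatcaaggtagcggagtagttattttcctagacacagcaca
Otc, chrX:15202424-15202723, minus strand: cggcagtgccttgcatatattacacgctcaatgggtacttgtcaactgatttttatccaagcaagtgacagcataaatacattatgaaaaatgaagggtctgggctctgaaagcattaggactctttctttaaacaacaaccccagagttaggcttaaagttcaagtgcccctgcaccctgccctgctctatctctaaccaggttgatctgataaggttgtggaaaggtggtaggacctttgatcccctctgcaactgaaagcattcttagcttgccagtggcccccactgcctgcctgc

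The window printed for Ass1 lies inside the gene's annotated span, chr3:35144765-35194632, so it is the start of a transcript within that span. The same holds for the Slc25a15 window, chr16:76336620-76336919, which lies inside chr16:76334037-76357325. The motifs searched were the TATA box (TATAAA), the CCAAT box (CCAAT), the C/EBP motif (TTGCNNAA, where N is any base), the glucocorticoid receptor half-site (TGTTCT), the cAMP response half-site (TGACG), the HNF4 half-site (CAAAGT) and the GC box (GGGCGG). Matches that overlapped each other were both counted. The Ass1 window held 1 match, to the TATA box on the opposite strand, 60 bases before the start, and a TATA box match was present in 14.2% of the 33469 rat promoters in the table. The Cps1 window held 1 match, to the HNF4 half-site on the opposite strand, 68 bases before the start, a motif present in 14.8% of all promoters. The Otc window held none of the 7. GC boxes, found in 33.1% of all promoters, were present in Asl and Nags. A CCAAT box, found in 37.5%, was present in Slc25a15, and a cAMP response half-site, found in 21.2%, in Nags. The glucocorticoid half-site and the C/EBP motif, found in 20.7% and 10.6% of all promoters, were in 0 of the 6 windows. These matches describe the letters of these windows and do not show binding.

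Transcript levels of the urea cycle genes differed little between the 3 groups. In limma, 0 of the 7 passed an adjusted p of 0.05 in any of the 3 comparisons or in the F test for any difference between groups, and the same was true of all 14217 genes (0% called in each). By the brightest probe set of each gene, the largest differences were those of Ass1, the enzyme that joins citrulline to aspartate. It was lower by 0.37 ± 0.17 (log2, SE) in HFD+PE livers than in HFD livers and lower by 0.43 ± 0.17 than in chow livers. Otc was higher by 0.26 ± 0.15 in HFD than in chow livers. The second Cps1 probe set was lower in HFD+PE livers by 0.46 ± 0.23 than in HFD and by 0.36 ± 0.23 than in chow livers. All other differences of the brightest probe sets were within 0.14 log2 of zero, apart from Otc in HFD+PE against HFD at -0.19. The plot of levels by animal shows the 3 groups of each gene overlapping.

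**Figure D1:**
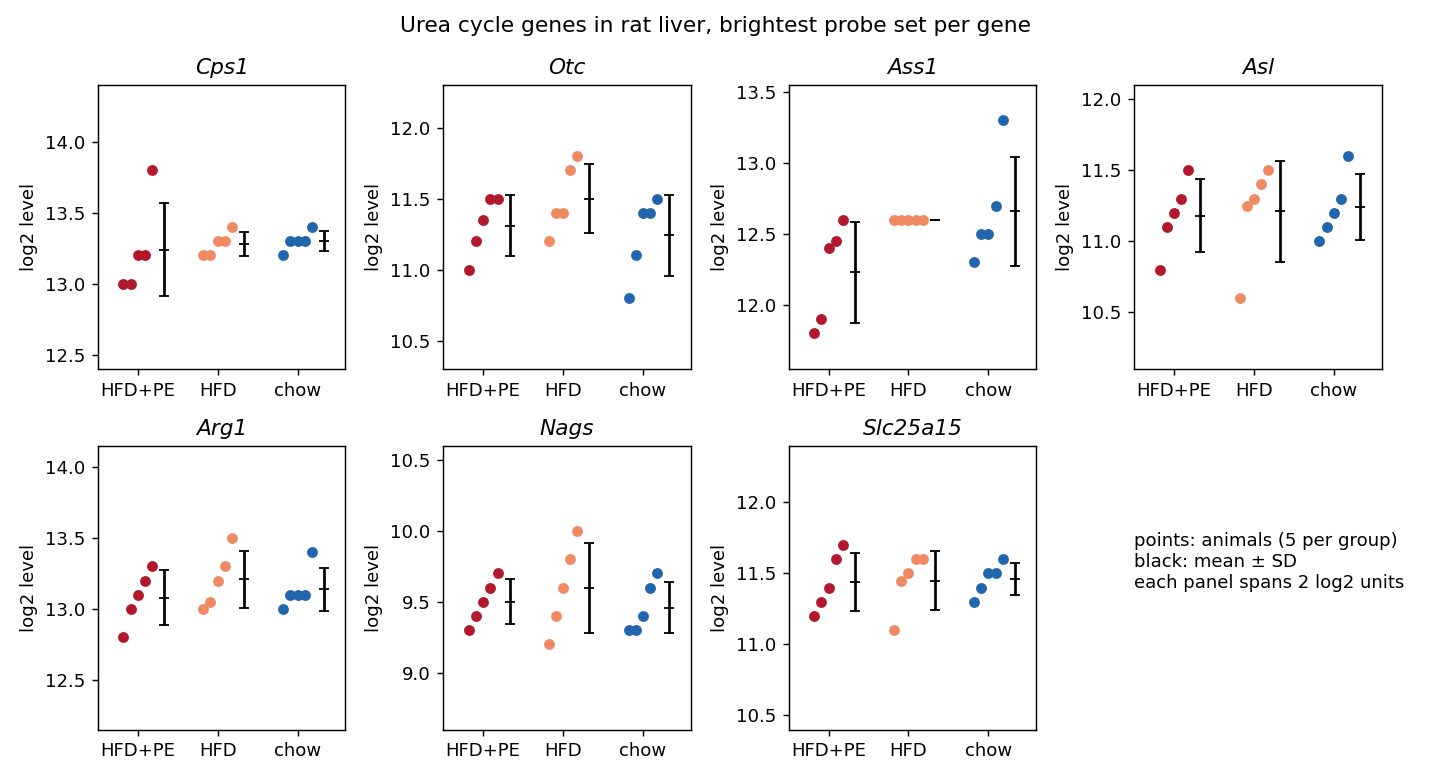
Level of each urea cycle gene in the liver of each animal (y axis, log2 signal of the brightest probe set; each panel spans 2 log2 units, so spreads compare but levels between panels do not). Points are animals of the HFD+PE, HFD and chow groups, sorted by level, and the black bar is the mean ± SD of 5 animals. All 5 HFD animals have 12.6 for Ass1, where 4 of 5 HFD+PE animals lie below them.

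Nags makes N-acetylglutamate, the obligatory activator of carbamoyl phosphate synthetase. Its levels were 9.3 to 9.7 in HFD+PE livers, 9.2 to 10 in HFD livers and 9.3 to 9.7 in chow livers, and these ranges overlapped. The means were 9.50 ± 0.16 in HFD+PE, 9.60 ± 0.32 in HFD and 9.46 ± 0.18 in chow livers (SD, n = 5 each). The differences were -0.10 in HFD+PE against HFD, 0.14 in HFD against chow and 0.04 in HFD+PE against chow, with an SE of 0.13 for each.

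Cps1 encodes carbamoyl phosphate synthetase, which captures ammonia in the mitochondrion as the cycle's entry step. By the brightest of its probe sets, the HFD+PE livers had 13.8, 13.2, 13.0, 13.0 and 13.2 in animals 1, 2, 3-4, 5 and 6. The HFD livers had 13.2, 13.4, 13.2, 13.3 and 13.3, and the chow livers 13.3, 13.3, 13.3, 13.2 and 13.4. The chow and HFD animals were thus within 0.2 of each other, and the HFD+PE group held both the highest animal and the 2 lowest, at 13.0. The group means were 13.24 ± 0.33 in HFD+PE livers, 13.28 ± 0.08 in HFD livers and 13.30 ± 0.07 in chow livers (SD, n = 5 each), and the 3 differences were -0.06 to -0.02 with an SE of 0.12. The HFD+PE values depended on animal 1: without it, the differences of HFD+PE were -0.18 from HFD (adjusted limma p 0.997) and -0.20 from chow (adjusted limma p 0.302). The unadjusted limma p were then 0.032 and 0.019, where 476 and 1723 of the 14217 genes were under 0.05.

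The second Cps1 probe set, whose RefSeq accession is that of Cps1, gave a wider picture. Its levels in HFD+PE livers were 11.3, 11.5, 10.8, 10.4 and 10.8, against 11.4, 11.4, 11.2, 11.3 and 11.8 in HFD livers and 11.3, 10.6, 12.1, 11.2 and 11.4 in chow livers. In HFD+PE, 3 of 5 animals lay below the lowest HFD animal. The means were 10.96 ± 0.44 in HFD+PE, 11.42 ± 0.23 in HFD and 11.32 ± 0.54 in chow livers. The difference of HFD+PE from HFD was -0.46 ± 0.23 (SE; 95% interval -0.95 to 0.03), and in the fit over all probe sets its adjusted limma p was 0.990. The exact permutation p for this difference, two-sided, was 0.103, where 5 against 5 animals cannot give less than 0.00794. The 2 Cps1 probe sets followed each other weakly across the 15 animals, with r = 0.39.

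Otc encodes ornithine transcarbamylase, which forms citrulline in the mitochondrion. Its levels in animals 1, 2, 3-4, 5 and 6 of the HFD+PE group were 11, 11.5, 11.35, 11.5 and 11.2. The HFD livers had 11.4, 11.2, 11.7, 11.4 and 11.8, in animals 1-2, 3, 4, 5 and 6, and the chow livers had 11.4, 10.8, 11.5, 11.4 and 11.1. The 2 highest animals were both on HFD and the lowest was on chow, and the groups overlapped. The means were 11.31 ± 0.21 in HFD+PE, 11.50 ± 0.24 in HFD and 11.24 ± 0.29 in chow livers. The difference of HFD from chow had a 95% interval of -0.05 to 0.57 and an adjusted limma p of 0.697.

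Slc25a15 encodes the carrier that exchanges ornithine for citrulline across the inner mitochondrial membrane. By its brightest probe set its levels were 11.2 to 11.7 in HFD+PE, 11.1 to 11.6 in HFD and 11.3 to 11.6 in chow livers, and the means were 11.44 ± 0.21 in HFD+PE, 11.45 ± 0.21 in HFD and 11.46 ± 0.11 in chow livers (SD, n = 5 each). This was the smallest set of differences of the 7 genes, at -0.02 to -0.01 with an SE of 0.11. It was also the gene with the most probe sets, 6, and none of their differences between groups exceeded 0.18. One of them spread widely inside every group, at 10.2 to 11.3 in HFD+PE, 10.4 to 11.4 in HFD and 10.3 to 11.55 in chow livers. The dimmest lay at 4.0 to 4.5 in all animals and ran against the other 5, with r of -0.47 to -0.27, whereas those 5 had r of 0.21 to 0.74 among themselves.

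Ass1 encodes argininosuccinate synthetase, the first cytosolic enzyme of the cycle, and is represented by 1 probe set. The HFD+PE livers had 12.6, 12.4, 12.45, 11.8 and 11.9 in animals 1, 2, 3-4, 5 and 6. The HFD livers had 12.6 in all 5 animals and on all 6 arrays. The chow livers had 12.7, 12.3, 13.3, 12.5 and 12.5 in animals 1, 2, 3-4, 5 and 6. In HFD+PE, 4 of 5 animals lay below every HFD animal and the fifth equalled them, and animals 5 and 6 lay below every chow animal as well. An identical value in all HFD animals is uncommon on this scale and was found for 18 of the 14217 genes (0.127%).

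The Ass1 mean was 12.23 ± 0.36 in HFD+PE livers, 12.60 ± 0 in HFD livers and 12.66 ± 0.38 in chow livers (SD, n = 5 each). HFD+PE against HFD gave a fold of 0.774 (95% interval 0.602 to 0.995), with an unadjusted limma p of 0.046, an adjusted p of 0.993 and a two-sided exact permutation p of 0.0476. HFD+PE against chow gave a fold of 0.742 (95% interval 0.577 to 0.954), with an unadjusted limma p of 0.023, an adjusted p of 0.352 and an exact permutation p of 0.135. These differences therefore did not pass the test over all genes. Both rested on animals 5 and 6 of HFD+PE: without animal 5 the difference from HFD was -0.26, and without animal 6 it was -0.29. The difference from chow was smallest, at -0.27, without chow 3-4, the animal at 13.3. On the 13 arrays with low spike-in levels, the differences of HFD+PE were -0.48 from HFD and -0.64 from chow. Of the chow arrays this set held only chow 4 at 13.3, an array of chow 3-4, and chow 5 and 6 at 12.5. It also left out HFD+PE 1 at 12.6, the highest of its group.

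Asl encodes argininosuccinate lyase, which splits argininosuccinate into arginine and fumarate. The brightest probe set annotated to it carries an accession that RefSeq pairs with Hnrnpab, a gene for an RNA-binding protein, whereas the second carries the accession of Asl. The 2 ran together across the 15 animals (r = 0.87), and the probe set of Hnrnpab itself ran against both (r = -0.41 and -0.32). The first gave 11.18 ± 0.26 in HFD+PE, 11.21 ± 0.35 in HFD and 11.24 ± 0.23 in chow livers. The second gave 9.77 ± 0.27 in HFD+PE, 9.90 ± 0.23 in HFD and 9.93 ± 0.35 in chow livers (SD, n = 5 each). By both, the groups overlapped, and the differences were -0.16 to -0.03 with SEs of 0.16.

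Arg1 encodes the liver arginase, which releases urea and regenerates ornithine. Its levels were 12.8 to 13.3 in HFD+PE, 13 to 13.5 in HFD and 13 to 13.4 in chow livers. The means were 13.08 ± 0.19 in HFD+PE, 13.21 ± 0.20 in HFD and 13.14 ± 0.15 in chow livers (SD, n = 5 each), so the ranges overlapped throughout. The differences were -0.13 in HFD+PE against HFD, 0.07 in HFD against chow and -0.06 in HFD+PE against chow, with an SE of 0.11.

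In HFD against chow, 0 of the 7 had an unadjusted p under 0.05, against 7.65% of all genes, and 4 were lower, against 46.6% of all genes lower by any amount, so that both counts were near those of all genes. Their median difference was -0.01, with a range of -0.06 to 0.26, and the median over all genes was 0. The 95% intervals of the 7 genes spanned folds from 0.746 to 1.48. In HFD+PE against HFD, all 7 were lower, against 46.6% of all genes, with a median of -0.10 and a range of -0.37 to -0.01. Of the 7, 1 (Ass1) had an unadjusted p under 0.05, against 2.7% of all genes, and the intervals spanned folds from 0.602 to 1.24. With 1 animal left out at a time, 4 to 7 of the 7 were lower, the 4 being without HFD+PE 3-4. In HFD+PE against chow, 5 were lower and 2 higher, against 45.6% of all genes lower, and 1 (Ass1) had an unadjusted p under 0.05, against 11.1% of all genes. Their median there was -0.06, with a range of -0.43 to 0.07, against 0.01 over all genes, and intervals spanned folds from 0.577 to 1.30. Without chow 3-4, 2 of the 7 were lower in HFD+PE against chow and 1 in HFD against chow. With other single animals left out, 2 to 6 were lower in HFD+PE against chow, the 2 being without HFD+PE 3-4. In HFD against chow 2 to 5 were, the 2 being without chow 6 or without HFD 4. In the F test, Ass1 alone had an unadjusted p under 0.05, against 8.14% of all genes, and its adjusted p was 0.603. The comparisons share animals and are not independent of each other.

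**Figure D2:**
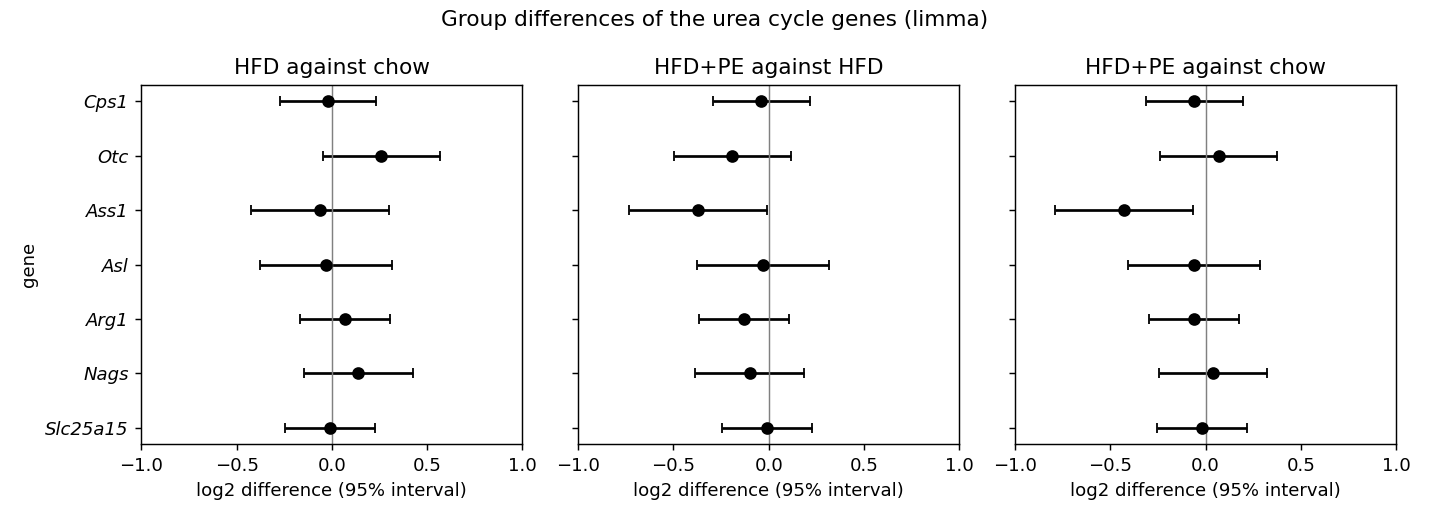
Log2 differences of the 7 urea cycle genes (points, from limma over 5 animals per group) with their 95% intervals (bars), with 1 panel per comparison. The intervals of Ass1 exclude zero in both comparisons of HFD+PE before adjustment over all genes, at -0.37 and -0.43, and all other intervals include it.

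Across the 15 animals the cycle genes varied together only in part. Of the 21 pairs of members, 17 had a correlation of log2 levels above 0, with a median r of 0.33 that was 0.34 after group means were removed. By the brightest probe set of each gene, the most alike were Arg1 and Nags (r = 0.64) and the least alike Cps1 and Otc (r = -0.45). The second Cps1 probe set, at r = 0.39 with the brightest, was not part of these pairs. The value for Cps1 and Otc therefore holds for the brightest Cps1 probe set alone. Chow 3-4, the highest of the chow animals in Otc, Ass1, Asl, Arg1 and Slc25a15, carried some of this, and the median r was 0.28 without it. All genes of an animal share its arrays and RNA, so these values describe the animals and carry no test.

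Among 7112 other genes at or above the median level, the closest match to Otc was Mcee, the mitochondrial methylmalonyl-CoA epimerase, with r = 0.93, followed by Tmem230 (0.87) and Sdhb, a subunit of succinate dehydrogenase (0.87). The closest to Ass1 were Hddc3 (0.82), Serf1 (0.81) and Bhmt, which remethylates homocysteine with betaine (0.80). Arg1 was closest to Bag3, a co-chaperone (0.87), Akr1c14 (0.87) and Tsku (0.85). Nags was closest to Dgat2 (0.84), an enzyme of triglyceride synthesis, to Vasn (0.80) and to Cidec (0.79), a lipid droplet protein. Cps1 was closest to Bcl6b (0.88), Pkp3 (0.85) and RGD1559600 (0.81). Asl was closest to Mfsd3 (0.87), Flywch1 (0.81) and Eif3h (0.80), and Slc25a15 to RT1-CE10 (0.82), Sphk2 (0.80) and RT1-Ba (0.79). None of these nearest genes was another cycle gene, and each is among the highest of 7112 correlations over 15 animals.

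Some of the spread between animals ran with a measure of RNA quality. The control transcripts Gapdh and beta-actin have probe sets at their 3′ and 5′ ends, and a larger 3′ excess means that less of the 5′ end was labelled. The mean excess was 3.38 ± 0.25 in HFD+PE, 3.25 ± 0.41 in HFD and 3.14 ± 0.34 in chow livers (SD, n = 5 each). With group means fitted, 370 of the 31042 probe sets (1.19%) followed this measure at an adjusted limma p under 0.05, 282 of them lower where the excess was larger. One of the 14 cycle probe sets was among them, the fifth of Slc25a15, with a slope of -0.72 ± 0.16 and an adjusted limma p of 0.0368. Otc had a slope of -0.58 ± 0.14 per log2 unit (adjusted limma p 0.0518) and the second Cps1 probe set one of -0.78 ± 0.25 (adjusted limma p 0.168). The slopes of the brightest Cps1 probe set and of Ass1 were 0.17 ± 0.16 and -0.27 ± 0.23, with adjusted limma p of 0.756 and 0.717. With the 3′ excess as a covariate, Otc was 0.32 higher in HFD than in chow livers (unadjusted limma p 0.0064, adjusted 0.416). Without the covariate the unadjusted limma p was 0.092. It was under 0.05 in 3 of the 22 settings looked at. In the covariate fit, 1385 of the 14217 genes were under 0.05 in this comparison. Otc was then 0.21 higher in HFD+PE than in chow livers (adjusted limma p 0.427), where it was 0.07 without the covariate. Asl was then lower by 0.15 in HFD+PE than in chow livers (adjusted limma p 0.788). Ass1 was lower in HFD+PE livers by 0.33 than in HFD and by 0.36 than in chow livers. Its unadjusted limma p were then 0.071 and 0.059, no longer under 0.05, and the adjusted ones 0.9999 and 0.410. The part of RNA quality in these differences was not tested beyond this.

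**Figure D3:**
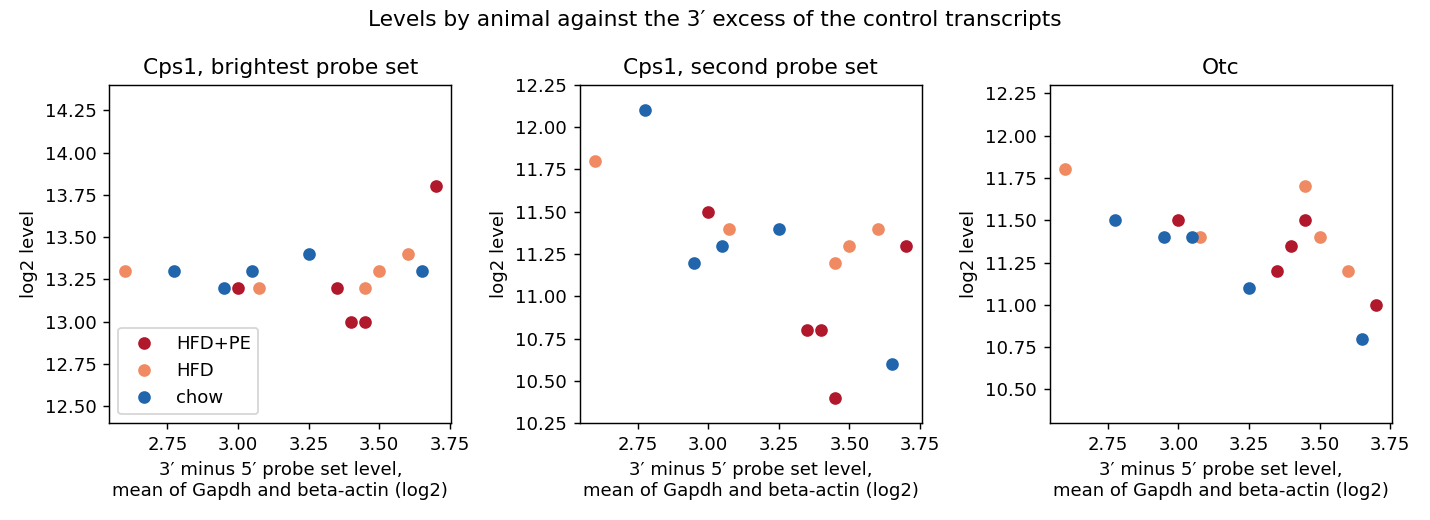
Log2 level of both Cps1 probe sets and of Otc (y axes) against the 3′ excess of the control transcripts (x axis, log2), 1 point per animal, coloured by group. The second Cps1 probe set and Otc are lower where the excess is larger, with slopes of -0.78 and -0.58, whereas the brightest Cps1 probe set has a slope of 0.17.

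Genes on a broad list of nitrogen supply and transport did not pass the test either. Not all of the list feeds the cycle or carries its metabolites, for example Slc25a20, Nos3, Gatm and Sirt3. Of 42 listed, 37 were measured and 0 passed in any comparison; in HFD+PE against chow 18 were higher and 18 lower, with a median of 0, and 6 had an unadjusted p under 0.05 (16.2%, against 11.1% of all genes). In each of the other comparisons 1 of the 37 did (2.7%), against 7.65% of all genes in HFD against chow and 2.7% in HFD+PE against HFD. Car5a, the mitochondrial carbonic anhydrase that supplies bicarbonate to Cps1, averaged 9.40 ± 0.22 in HFD+PE, 9.28 ± 0.25 in HFD and 8.96 ± 0.09 in chow livers (SD, n = 5 each). HFD+PE exceeded chow by 0.44 ± 0.12 (SE), with an adjusted limma p of 0.171. Gls2, the liver glutaminase that releases ammonia next to Cps1, averaged 11.21 ± 0.12 in HFD+PE, 11.46 ± 0.17 in HFD and 11.55 ± 0.25 in chow livers, a difference of -0.34 ± 0.11 from chow (adjusted limma p 0.259). Glul, the glutamine synthetase that takes up ammonia at the central vein, averaged 10.85 ± 0.19 in HFD+PE, 10.66 ± 0.24 in HFD and 10.47 ± 0.11 in chow livers, a difference of 0.38 ± 0.11 from chow (adjusted limma p 0.217). Aqp9, a channel for urea and glycerol, was higher in HFD+PE than in chow livers by 0.32 ± 0.11 (adjusted limma p 0.257).

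Among regulators of the cycle's transcription, Nr3c1 and Cebpa had their highest means in HFD livers. Of 20 listed, 19 were measured and 0 passed; 3 were higher with an unadjusted p under 0.05 in HFD than in chow livers (Nr3c1, Cebpa and Insr) and 2 lower in HFD+PE than in HFD livers (Nr3c1 and Cebpa). These counts were 15.8% and 10.5% of the list, beside 7.65% and 2.7% of all genes. For HFD+PE against chow, 0 of the 19 had an unadjusted p under 0.05, beside 11.1% of all genes. Nr3c1, the glucocorticoid receptor, averaged 9.25 ± 0.23 in HFD+PE, 9.64 ± 0.15 in HFD and 9.21 ± 0.11 in chow livers (SD, n = 5 each), with adjusted limma p of 0.993 for HFD+PE against HFD and 0.426 for HFD against chow. Cebpa, a C/EBP factor that drives hepatocyte genes, averaged 10.01 ± 0.17 in HFD+PE, 10.44 ± 0.49 in HFD and 9.92 ± 0.13 in chow livers. Crem, a cAMP-responsive factor, averaged 10.26 ± 0.21 in HFD+PE, 10.54 ± 0.18 in HFD and 10.28 ± 0.33 in chow livers. Insr, the insulin receptor, averaged 7.39 ± 0.13 in HFD+PE, 7.43 ± 0.13 in HFD and 7.21 ± 0.21 in chow livers.

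Genes induced by fasting, glucagon or glucocorticoids, of which 14 of 17 were measured, had 0 past the threshold and a median of -0.13 in HFD+PE against HFD, -0.20 in HFD against chow and -0.23 in HFD+PE against chow. In the comparison of HFD+PE with chow, 10 of 14 were lower, against 45.6% of all genes, and 2 had an unadjusted p under 0.05 (14.3%, against 11.1% of all genes). In HFD against chow 1 of 14 did (7.14%, against 7.65%), and in HFD+PE against HFD 0 did (against 2.7%). Angptl4, a fasting-induced inhibitor of lipoprotein lipase, averaged 10.49 ± 0.30 in HFD+PE, 10.64 ± 0.44 in HFD and 11.11 ± 0.23 in chow livers (SD, n = 5 each). Fkbp5, a glucocorticoid target, averaged 7.08 ± 0.49 in HFD+PE, 7.21 ± 0.17 in HFD and 7.60 ± 0.31 in chow livers. Cpt1a, the carnitine palmitoyltransferase of fatty acid import, averaged 11.99 ± 0.12 in HFD+PE, 11.84 ± 0.21 in HFD and 11.78 ± 0.13 in chow livers. Sds, the serine dehydratase, spread most, at 9.64 ± 1.41 in HFD+PE, 10.67 ± 0.37 in HFD and 10.07 ± 0.79 in chow livers. The adjusted limma p of HFD+PE against chow for these 4 genes were 0.222 (Angptl4), 0.311 (Fkbp5), 0.456 (Cpt1a) and 0.864 (Sds).

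The cycle is a periportal function, so markers of both ends of the liver lobule were set beside it. Of 9 periportal markers measured (of 12 listed, the cycle genes left out), 0 passed in any comparison; in HFD+PE against chow 6 were lower and 3 higher, beside 45.6% of all genes lower, with a median of -0.12. Of the 9, 2 had an unadjusted p under 0.05 (Cyp2f4 higher, Gls2 lower), which is 22.2%, against 11.1% of all genes. Of 11 pericentral markers measured (of 13), 0 passed either; all 11 were higher in HFD+PE than in chow livers, with a median of 0.38, where 45.6% of all genes were lower and the median was 0.01. Of the 11, 3 had an unadjusted p under 0.05 (27.3%, against 11.1% of all genes). The companion lists share genes, so their shares are not independent of each other. Gls2 and Glul, counted here, were also counted among the nitrogen supply genes. Sds and Pck1 are on both the periportal and the fasting list. Against HFD livers, 10 of the 11 pericentral markers were higher in HFD+PE, with a median of 0.15. There 0 had an unadjusted p under 0.05, against 2.7% of all genes. In HFD against chow 9 of 11 were higher, with a median of 0.15 and 2 under it (18.2%, against 7.65% of all genes). In each of these 2 comparisons 46.6% of all genes were lower. Of the 9 periportal markers, 6 were lower and 3 higher in HFD+PE than in HFD livers (median -0.10). In HFD against chow 4 were lower and 5 higher (median 0.01). An unadjusted p under 0.05 was found for 1 of 9 in HFD+PE against HFD (11.1%, against 2.7% of all genes). It was found for 0 in HFD against chow, against 7.65%. Cyp2e1, an ethanol- and fat-inducible cytochrome P450, averaged 13.55 ± 0.13 in HFD+PE, 13.32 ± 0.25 in HFD and 12.92 ± 0.31 in chow livers (SD, n = 5 each), a difference of 0.63 ± 0.14 from chow (adjusted limma p 0.108). Cyp1a2, another pericentral P450, averaged 12.01 ± 0.98 in HFD+PE and 11.35 ± 0.18 in chow livers, a difference of 0.66 ± 0.32 (adjusted limma p 0.463). Lgr5, a Wnt target, was dim, at 4.10 ± 0.19 in HFD+PE and 3.72 ± 0.19 in chow livers, where array medians were 5.4 to 5.5. Its difference was 0.38 ± 0.12 (adjusted limma p 0.224). Slc1a2 and Nkd1, at 4.74 and 5.38 in HFD+PE livers, were also below these medians. Cyp2f4 and Cdh1, both on the periportal list, were higher in HFD+PE than in chow livers by 0.51 ± 0.17 and 0.22 ± 0.10 (adjusted limma p 0.249 and 0.453). Across these groups, the mean levels of the pericentral list were 8.48 to 8.91 in HFD+PE, 8.27 to 8.75 in HFD and 8.06 to 8.64 in chow livers. Those of the periportal list were 11.24 to 11.59 in HFD+PE, 11.46 to 11.7 in HFD and 11.37 to 11.67 in chow livers, and within each list the ranges overlapped.

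**Figure D4:**
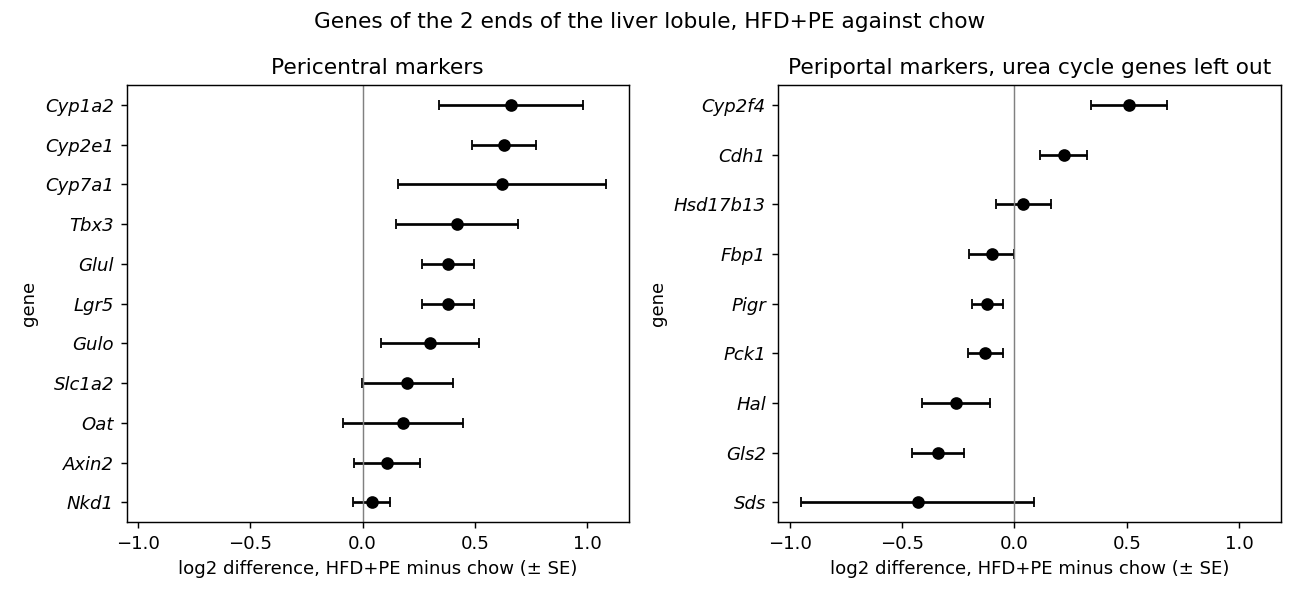
Log2 differences of HFD+PE from chow (x axis, points, with the SE from limma as bars, 5 animals per group) for each pericentral marker (left) and each periportal marker other than the cycle genes (right). All 11 pericentral markers lie above zero, with a median of 0.38, and 6 of 9 periportal markers lie below it, with a median of -0.12.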

How the data were processed

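Liver RNA was measured on 18 Affymetrix arrays, 6 per diet group. The submitters' processing notes name Affymetrix Expression Console and RMA, which corrects background, equalizes the distributions of the arrays and summarizes the probes of each set. The authors deposited log2 values for 31099 probe sets, rounded to 0.1. Precision is limited by the rounding and by how few animals there were. After removal of 57 control probe sets, genes were named from the platform annotation with symbols updated through RefSeq identifiers. Differences were fitted in R 4.3.3 with limma 3.58.1: lmFit with 1 mean per group over 15 animals, eBayes, two-sided tests and Benjamini-Hochberg adjustment over 14217 genes at 0.05. No filter on dim genes was applied. Exact permutations of 5 against 5 animals stood beside single genes. The urea cycle genes and the companion lists were chosen with earlier results of these data known. From each of the 5 companion lists (nitrogen supply, regulators, fasting-induced, periportal and pericentral genes) the 4 genes with the smallest F test p were named, and for each cycle gene the 3 most correlated genes. Settings were varied as the closing section gives, and the fit was tested on simulated data. Figures were drawn with matplotlib 3.10.9.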

Additional observations from a re-analysis of the deposited data

Results flagged for a closer look

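In 4 of 42 groups of 5 animals looked at (14 probe sets in 3 groups), 1 animal stood far from the others by Dixon's test. Chance alone marks about 1 in 20 such groups. HFD+PE animal 1 was high in the brightest Cps1 probe set, at 13.8, with the next animal at 13.2. HFD animal 6 was low in the brightest Asl probe set, at 10.6, with the next at 11.25. Chow 3-4 was high in the second Asl probe set, at 10.55, with the next at 9.8. The same animal was high in Arg1, at 13.4, with the next at 13.1. HFD+PE animal 1 had the largest 3′ excess of the control transcripts (3.7), and HFD animal 6 and chow 3-4 had the smallest of their groups (2.6 and 2.78). The part of RNA quality in these values was not tested.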

How the results depend on the processing

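Under 11 other settings, 218 of 231 values of single cycle genes kept their direction, 8 reversed and 5 were exactly 0. None of these, of the 210 values without 1 animal or of the exact permutations passed an adjusted p of 0.05. The 8 reversed values were at most 0.13 in size. In HFD against chow, Cps1 became 0.04 as the mean of its probe sets, 0.10 in a fit that adjusts for the spike-in set, 0.013 on the low spike-in arrays and 0.10 by its second probe set. In the same comparison Ass1 became 0.073 and Asl 0.0061 with that adjustment, and Slc25a15 became 0.11 by its second probe set, a setting chosen after seeing the data. In HFD+PE against chow, Nags became -0.13 on the low spike-in arrays. The causes were not tested.

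Counts over all genes moved more. Taking 18 arrays as separate samples called 145 genes in HFD+PE against chow and 19 in the F test. With the replicate block on 18 arrays the counts were 119 and 29, and 0 cycle genes passed in any of the 3 comparisons under either setting. Same-numbered arrays had r of -0.31 to 0.19 between groups, and an array correlated best with its own number in 8 of 36 cases, so the numbers were not taken as pairs. The low spike-in arrays alone called 1 gene in HFD against chow, 3 in HFD+PE against chow and 3 in the F test.

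Leaving out 1 animal gave 0 to 1 genes in HFD against chow (1 without HFD 1-2), 0 to 2 in HFD+PE against HFD (2 without HFD+PE 3-4) and 0 to 26 in HFD+PE against chow. In that last comparison the count was 26 when HFD+PE 3-4 was left out, 2 when HFD+PE 1 was, and 1 when either HFD+PE 2 or chow 5 was. Of the 210 values of cycle genes, 26 reversed and 10 were exactly 0. In HFD against chow the ranges were -0.05 to 0.005 for Cps1, -0.15 to 0.10 for Ass1, -0.10 to 0.12 for Asl, -0.0025 to 0.14 for Arg1 and -0.05 to 0.0775 for Slc25a15. In HFD+PE against HFD they were -0.18 to 0.02 for Cps1, -0.18 to 0.065 for Asl and -0.10 to 0.05 for Slc25a15. In HFD+PE against chow they were -0.04 to 0.15 for Otc, -0.14 to 0.035 for Asl, -0.12 to 0.01 for Arg1, -0.01 to 0.10 for Nags and -0.085 to 0.04 for Slc25a15. Ass1 stayed lower in HFD+PE throughout, with differences of -0.46 to -0.26 from HFD and -0.52 to -0.27 from chow. Cps1 was -0.20 to 0 in HFD+PE against chow.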
